A study of Mus musculus with 12 samples.

Results

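The comparison described here is between mammary gland cells of mice fed a low dose of polybrominated diphenyl ethers (PBDEs) and cells of mice fed none. It used 6 of the 12 libraries of the series, in 3 pairs with the same hormone treatment: VCD_Low_PBDE against VCD_Vehicle, VCD_Low_E2 against VCD_E2, and VCD_Low_E2_P4 against VCD_E2_P4. Immune cells were taken as barcodes with at least 1 UMI (unique molecular identifier, a counted transcript) of Ptprc and none of Pdgfra or Epcam. Fibroblasts were taken as barcodes with at least 20 UMIs of Col1a1, Col1a2 and Col3a1 together and none of Ptprc, Pecam1 or Epcam. The 6 libraries held 3809 immune cells and 20146 fibroblasts among 28661 cells that passed the filters, of 46257 in all 12 libraries. The low PBDE libraries gave 2041 of these immune cells and 11800 of these fibroblasts.

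All 6 groups were female C57BL/6J mice aged 43 weeks that had received 4-vinylcyclohexene diepoxide (VCD) at 160 mg/kg per day for 15 days by intraperitoneal injection. VCD destroys the ovarian follicles and serves as a model of the menopausal transition, so the controls were follicle-depleted too. From 100 days after VCD onset the low PBDE groups ate food with PBDE-47 at 0.05, PBDE-100 at 0.0028 and PBDE-153 at 0.0063 mg/kg per day for 20 weeks. Groups without PBDE ate nutrient-matched food with DMSO. In the final week the mice were injected with sesame oil (vehicle), with 17β-estradiol (E2, 1 µg per animal per day), or with E2 and progesterone (P4, 1 mg per animal per day). Each group was 1 library, and the number of animals behind a library is not given in the sources used here. The 3 pairs therefore differ in hormone as well as in mice, and p-values measure the spread between pairs.

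PBDEs are flame retardants that persist in body fat, and they and their hydroxylated metabolites are known ligands or modulators of xenobiotic, thyroid and steroid receptors. Mammary fibroblasts lay down the collagen matrix around the ducts and exchange hormone-dependent signals with the epithelium. The resident immune cells of the gland are macrophages, dendritic cells and lymphocytes that clear debris and shape the ducts.

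The library VCD_Low_E2_P4 stood apart from the others. In the other 5 libraries collagen UMIs were 12.4 to 33.5 per 1000 in the fibroblasts and 0.33 to 0.64 per 1000 in the immune cells. In VCD_Low_E2_P4 the fibroblasts lay within that range, at 30.1 per 1000, but the immune cells carried 2.85 collagen UMIs per 1000. Of these immune cells 23.8% had at least 20 collagen UMIs, against 0.96% to 1.93% in the other 5 libraries. That library held 10006 barcodes, against 4642 to 5838 in the others. The libraries had 59733983 to 109224969 UMIs in total. Barcodes were more numerous in every low PBDE library (5362 to 10006) than in any without (4642 to 5305). The part of this difference in the results was not tested. Pairs of the 6 libraries shared 3 to 15 cell barcodes. Median UMIs per fibroblast overlapped between the groups, at 15482 to 20078 with low PBDE and 15079.5 to 22548 without. Fibroblasts in none of the marker gates used below had a median of 2713.5 UMIs in VCD_Low_E2_P4. In the other 5 libraries such cells had medians of 10742 to 14049.5 UMIs. A code in the names of the deposited files, whose meaning is not given in the sources used here, is shared by the 3 libraries without PBDE and VCD_Low_PBDE and differs for VCD_Low_E2 and VCD_Low_E2_P4. Only the pair without hormone lies within 1 code, so its values are given beside part of the results.

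No gene passed the test in either compartment. edgeR's quasi-likelihood test with hormone as a block called 0 of 14597 genes in fibroblasts (0% of genes, smallest adjusted p = 0.852) and 0 of 11342 in immune cells (0%, smallest adjusted p = 0.975). At an unadjusted p under 0.05 there were 825 genes in fibroblasts (5.65%) and 481 in immune cells (4.24%). DESeq2 called 32 genes in fibroblasts, 21 higher and 11 lower with low PBDE, and 1 in immune cells, Lst1. The genes and lists below are therefore described by their values and counts. The median absolute log2 difference was 0.08 in fibroblasts and 0.13 in immune cells. Levels are given as CPM, UMIs per 1000000 of a library's sum after TMM scaling, which corrects for composition. Among genes averaging 10 CPM or more, 2 of 7734 in fibroblasts and 48 of 7688 in immune cells differed by more than 1 on the log2 scale.

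Of 21 listed genes of cholesterol synthesis and uptake, 19 had a lower fitted level in low PBDE fibroblasts. All 21 were tested, and 11 were lower at an unadjusted p under 0.05 and 0 higher, against 2.58% of all genes lower at this level. This list and those below were chosen with earlier results of these data known, so such shares are described and not tested. In 8 of 21 genes the 3 low PBDE libraries lay below all 3 without PBDE, against 2.01% of all genes. The median log2 difference of the list was -0.25, with -0.36 in the vehicle pair, -0.27 in the E2 pair and -0.15 in the E2 + P4 pair, while the median over all genes was 0.00 in the fit (adjusted p of each member from 0.852 upward in edgeR). The summed level of the list was 1112, 897 and 829 CPM without PBDE (vehicle, E2, E2 + P4) and 682, 677 and 744 CPM with it. The sums did not overlap between the groups. The direction held in all 17 alternative settings, with medians from -0.63 to -0.06.

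Hmgcs1, the synthase that makes HMG-CoA for the mevalonate pathway, stood at 204, 149 and 144 CPM in VCD_Vehicle, VCD_E2 and VCD_E2_P4 and at 102, 94.1 and 109 CPM in the low PBDE libraries of the same hormones. The groups did not overlap, and the log2 difference was -0.69 (SE 0.12, edgeR adjusted p = 0.852, DESeq2 adjusted p = 0.000145). Idi1, which makes dimethylallyl diphosphate, stood at 132, 83.1 and 66.8 CPM without PBDE and 65.4, 50.8 and 58.7 CPM with it, a log2 difference of -0.64 (SE 0.16). All low PBDE libraries were again below the others, and the gap was smallest in the E2 + P4 pair.

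Sqle, squalene epoxidase, stood at 49.0, 32.4 and 31.7 CPM without PBDE and 26.0, 21.3 and 24.7 CPM with it. Msmo1, a sterol methyl oxidase, stood at 78.0, 57.5 and 52.4 CPM without and 42.4, 40.3 and 40.6 CPM with PBDE. Fdft1, squalene synthase with the lowest unadjusted p of the list, stood at 12.8, 17.1 and 15.8 CPM without and 10.2, 12.8 and 11.7 CPM with PBDE. In each of these 3 enzymes the 2 groups did not overlap, although for Fdft1 the low E2 library (12.80 CPM) nearly touched the vehicle library without PBDE (12.84 CPM).

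Cyp51, a sterol demethylase, and Sc5d, a sterol desaturase, were also among the 8 genes without overlap, with log2 differences of -0.49 and -0.21. Stard4, a sterol carrier protein that was not on the list, was among the 5 lowest p-values of genes lower in all pairs. It stood at 17.9, 16.6 and 17.7 CPM without PBDE and 10.2, 12.5 and 12.6 CPM with it, again without overlap. Insig1, which holds the pathway's transcription factor in the endoplasmic reticulum, was higher with PBDE in the E2 + P4 pair. It stood at 186, 142 and 91.6 CPM without and 93.4, 101 and 115 CPM with PBDE (-0.39, SE 0.25).

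**Figure D1:**
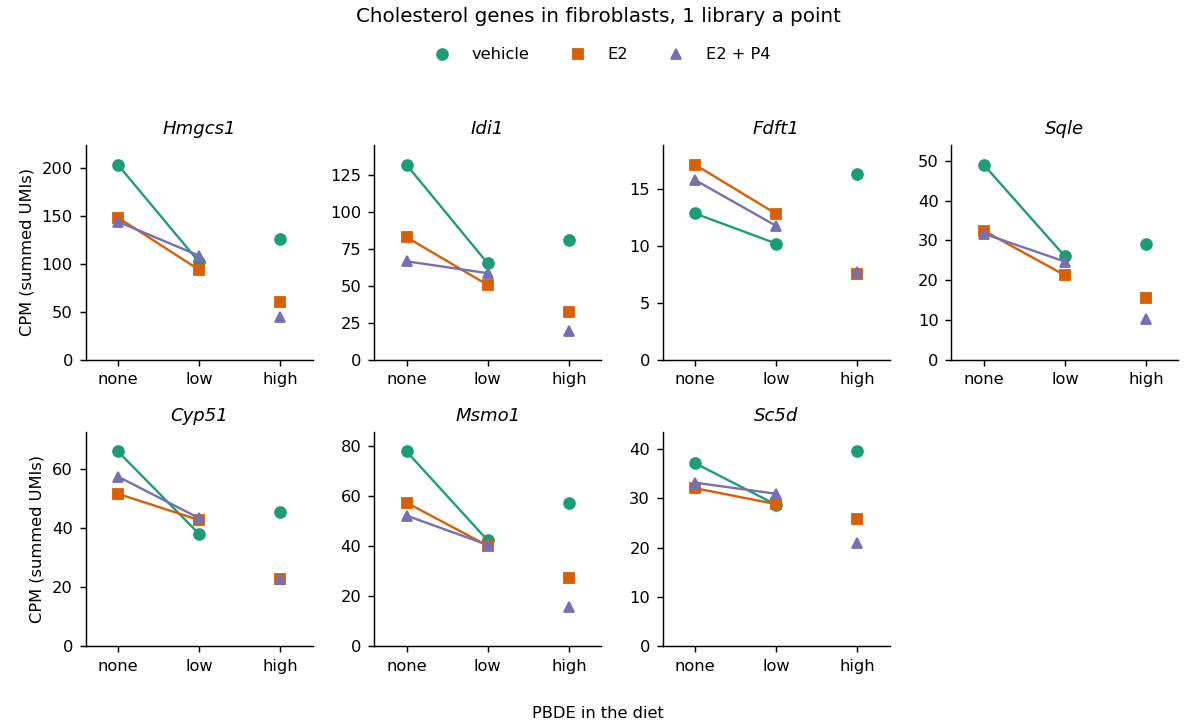
Levels of 7 of the 8 cholesterol genes whose low PBDE libraries did not overlap those without, in fibroblasts (y axis, CPM of summed UMIs; x axis, PBDE in the diet; 1 point a library, symbols by hormone, lines joining the none and low libraries of a pair; high PBDE points have no line). Each line descends, from 204, 149 and 144 to 102, 94.1 and 109 CPM for Hmgcs1.

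The promoters of these genes share a sequence feature that took no part in their choice. CCAAT boxes, the site of the factor NF-Y, occur beside sterol regulatory elements in many cholesterol genes. RefSeq promoter windows (GRCm38.p6) were available for 15 of the 21 genes. All 15 held CCAAT or its reverse complement ATTGG within 250 bases before a start, against 37.5% of 27025 genes. By window it was 15 of 18 (83.3%), against 33.8% of 32851 windows. TCACNCCAC, a sterol regulatory element searched on both strands, was found in 1 of the 15, Hmgcs1, and in 1.22% of all genes (1.05% of all windows). These matches describe the letters only. The stretches before the start of 3 genes lower in low PBDE fibroblasts are shown, 5′ to 3′ on the gene's strand, with the CCAAT box in capitals, here as ATTGG, its reverse complement. It begins 45, 24 and 73 bases before the RefSeq start of Hmgcs1, Sc5d and Hsd17b7. The stretch of Hsd17b7 is shorter, since it stops where the GENCODE gene begins, which lies upstream of its RefSeq start. The stretches lie at chr13:119690201-119690350 (plus strand) for Hmgcs1, chr9:42264301-42264450 (minus strand) for Sc5d, a sterol desaturase, and chr1:169969242-169969355 (minus strand) for Hsd17b7, a sterol reductase with a log2 difference of -0.25.
Hmgcs1: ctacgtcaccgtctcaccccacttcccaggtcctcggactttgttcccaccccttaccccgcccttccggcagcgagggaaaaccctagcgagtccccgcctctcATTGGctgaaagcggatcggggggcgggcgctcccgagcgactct
Sc5d: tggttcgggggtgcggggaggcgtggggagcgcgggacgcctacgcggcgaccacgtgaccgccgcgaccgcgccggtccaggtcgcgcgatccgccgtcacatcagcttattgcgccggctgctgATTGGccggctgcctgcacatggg
Hsd17b7: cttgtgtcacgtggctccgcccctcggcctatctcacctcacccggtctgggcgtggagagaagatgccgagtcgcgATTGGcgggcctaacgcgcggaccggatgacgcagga

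Cholesterol genes passed the test in 1 of the 3 fibroblast gates that were fitted, which did not include that of Gdf10 and F3. Fibroblasts with at least 10 UMIs of Fabp4, a fatty acid carrier of adipocyte-lineage cells, and of no other gate made up 9.13%, 12.4% and 5.32% of fibroblasts without PBDE and 11.5%, 9.41% and 5.43% with it, so the shares overlapped. Within this gate edgeR called 5 of 10505 genes (453 at an unadjusted p under 0.05), all lower with low PBDE: Hmgcs1, Stard4, Msmo1, Sqle and Fdps, named after their values were seen. All 5 belong to or carry the products of the sterol pathway. Hmgcs1 stood there at 550, 522 and 681 CPM without PBDE and at 216, 241 and 351 CPM with it, a log2 difference of -1.14 (SE 0.10, edgeR adjusted p = 0.0176). Each low PBDE library was below every library without. Stard4 fell by 1.02 (SE 0.10, edgeR adjusted p = 0.0281), and Fdps, which makes farnesyl diphosphate, fell by 0.99 (SE 0.11, edgeR adjusted p = 0.0329). The list's median was -0.63 in this gate, -0.18 in the gate of Tnc and Postn and -0.06 in the gate of Dpp4 and Pi16. Whether the gates differed from each other was not tested. Without the E2 + P4 pair edgeR called 23 of 10650 genes in the Fabp4 gate, 12 of them lower, the 5 included. In immune cells 0 of 20 tested list members reached an unadjusted p under 0.05 (4.24% of all genes), and the list's median was -0.02.

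All 9 listed heat shock genes had a higher fitted level in low PBDE fibroblasts, as had 7356 of the 14597 genes tested. The list of immediate early and heat shock genes had 11 of 30 members higher at an unadjusted p under 0.05 and 0 lower, against 3.08% of all genes higher at this level, with a median log2 difference of 0.07. The list was split after its values were seen. Of its 9 heat shock members 8 were higher at this level, with a median of 0.42, and of its 21 immediate early members 3 were (Fosl2, Nr4a2 and Nr4a3), with a median of -0.00.

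Hsph1, a co-chaperone of the Hsp70 family, stood at 67.5, 65.6 and 46.5 CPM in the vehicle, E2 and E2 + P4 libraries without PBDE and at 140.1, 124 and 69.4 CPM with it (log2 difference 0.85, SE 0.10). The groups did not overlap, but the low E2 + P4 library was only just above the vehicle library without PBDE. Dnajb1, an Hsp40 co-chaperone, stood at 365, 305 and 225 CPM without and 539.7, 444 and 317 CPM with PBDE (0.54, SE 0.06). Hspb1, a small heat shock protein, stood at 75.8, 72.9 and 63.6 CPM without and 94.4, 109 and 81.5 CPM with PBDE, without overlap as for 2.45% of all genes. Hspa1b, an inducible Hsp70, stood at 387, 249.7 and 161 CPM without and 569.5, 420.0 and 227 CPM with PBDE. Dnajb1 and Hspa1b were higher in each pair and overlapped between groups, since their levels also differed by hormone. Hspa1a and Hspa1b are near-identical copies, so the split of UMIs between them is uncertain.

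Many chaperone genes carry heat shock elements, paired GAA units bound by the factor HSF1. GAANNTTC or TTCNNGAA, each its own reverse complement, was sought within 250 bases before a start. It lay in 6 of the 7 heat shock genes with a window, all but Dnajb1, and in 3 of 18 immediate early genes. The share over all genes was 14.5%. By window it lay in 7 of 10 windows of the heat shock genes (70%), against 12.8% of all windows. The stretches of Hspb1 (chr5:135887769-135887918, plus strand) and Hspa1b (chr17:34959239-34959388, minus strand) show the element in capitals.
Hspb1: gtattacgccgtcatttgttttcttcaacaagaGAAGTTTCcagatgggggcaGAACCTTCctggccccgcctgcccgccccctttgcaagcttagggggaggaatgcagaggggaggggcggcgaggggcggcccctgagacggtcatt
Hspa1b: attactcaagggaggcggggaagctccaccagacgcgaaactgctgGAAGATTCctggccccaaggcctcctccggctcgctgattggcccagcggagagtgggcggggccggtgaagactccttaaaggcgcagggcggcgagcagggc

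In immune cells 2 of 9 heat shock members were higher at an unadjusted p under 0.05 (1.9% of all genes) and 0 lower, with a median of 0.37. Each library was prepared once, so cell preparation and diet cannot be told apart in these values.

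Glul had the lowest unadjusted p in fibroblasts. It encodes glutamine synthetase (chr1:153899944-153909723, GRCm38) and stood at 211, 139 and 160 CPM without PBDE and 343, 200.2 and 240.4 CPM with it (log2 difference 0.60, SE 0.06). The pairs differed by 0.69, 0.52 and 0.59 on the log2(CPM + 1) scale, and the low E2 library lay below the vehicle library without PBDE. Slc2a1, the glucose transporter GLUT1, stood at 17.3, 12.02 and 13.6 CPM without and 27.0, 16.3 and 21.0 CPM with PBDE. Nptx2, a secreted pentraxin, stood at 15.9, 11.98 and 9.77 CPM without and 30.01, 18.9 and 14.6 CPM with PBDE. Both were higher in each pair, and both overlapped between groups because the vehicle library without PBDE exceeded a low PBDE library with hormone.

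Ctla2a, a cysteine protease inhibitor whose level followed the hormone, stood at 4.79, 111 and 468 CPM without PBDE and 3.72, 53.2 and 225 CPM with it (-0.88, SE 0.14). The low PBDE library was lower in each pair, and the libraries overlapped across hormones. Hsd11b2, which inactivates glucocorticoids, was low throughout (1.47, 3.37 and 4.79 CPM without, 0.64, 1.95 and 2.70 CPM with PBDE).

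**Figure D2:**
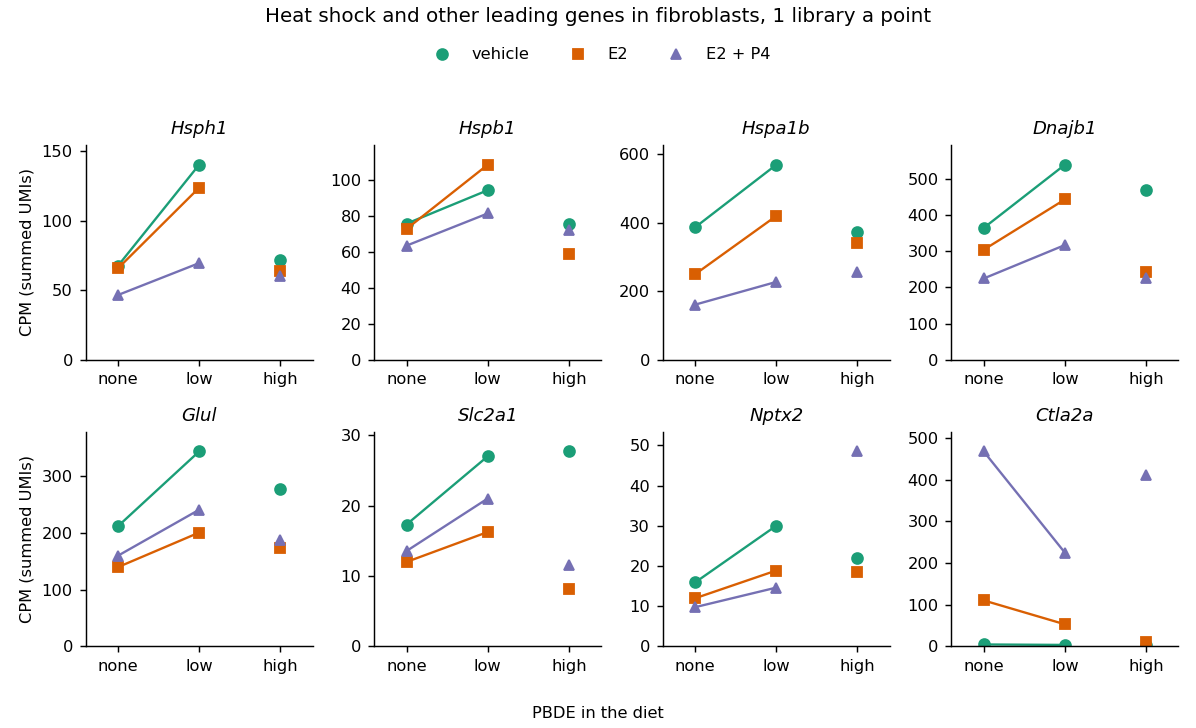
Levels of 4 heat shock genes and of Glul, Slc2a1, Nptx2 and Ctla2a in fibroblasts (y axis, CPM of summed UMIs; x axis, PBDE in the diet; 1 point a library, symbols by hormone, lines joining the none and low libraries of a pair; high PBDE points have no line). The first 7 genes are higher with low PBDE in each pair, and Ctla2a is lower, from 468 to 225 CPM with E2 + P4.

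Of 38 collagen and matrix genes 28 had a lower and 10 a higher fitted level in low PBDE fibroblasts. At an unadjusted p under 0.05, 8 were lower (2.58% of all genes) and 1 higher, Thbs1, with a median of -0.16 and pair medians of -0.34, -0.03 and -0.12. Col3a1, a fibrillar collagen, stood at 9284, 11266 and 16126 CPM without PBDE and 5860, 9475 and 14902 CPM with it. Col1a2 stood at 4920, 6052 and 9208 CPM without and 3881, 5671 and 7748 CPM with PBDE. Both were lower in each pair, and hormone separated the libraries more than PBDE did. Col1a1, Col1a2 and Col3a1 took part in choosing the fibroblasts, so their levels are not independent of the gate. The marker lists of fibroblast subsets moved as well, and their part in the values of the matrix and cholesterol lists was not tested. The list led by Postn and Mfap4, of which 3 genes are also matrix members, had 4 of 6 lower, 2 at this level, and summed to 997, 1041 and 2555 CPM without and 749.7, 985 and 2190 CPM with PBDE. That led by Gdf10 and F3 had 4 of 6 lower, 2 at this level, and that led by Fabp4 and Lpl 5 of 6, 1 at this level, with sums of 4363, 4572 and 3891 CPM without and 4006, 3587 and 4186 CPM with PBDE. All 6 markers led by Dpp4 and Pi16 were higher, 1 at this level, with pair medians of 0.52, 0.07 and 0.12. Tnc, a matrix protein of remodelling tissue, was at -0.55 (SE 0.19) and Postn at -0.30 (SE 0.11).

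Interferon-induced genes had 6 of 38 members lower at an unadjusted p under 0.05 (2.58% of all genes) and 0 higher in fibroblasts, with pair medians of -0.54, 0.09 and -0.22. The E2 pair thus went the other way. Bst2, a restriction factor for enveloped viruses, stood at 281, 645.5 and 644 CPM without and 188, 600.5 and 499.8 CPM with PBDE. Ifi27l2a stood at 986, 2048 and 2469 CPM without and 663, 1843 and 2051 CPM with PBDE. In both genes the 2 vehicle libraries were lowest and the groups overlapped. In immune cells 3 of 38 were higher (1.9% of all genes) and 2 lower (2.34%), with a median of -0.03.

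Inflammatory cytokine and chemokine genes had 7 of 33 tested members higher at this level in fibroblasts (3.08% of all genes) and 0 lower. The median was 0.25 in the fit, with smaller pair medians of 0.10, 0.15 and 0.11. Ccl11 (eotaxin), an eosinophil attractant made by fibroblasts, stood at 1024, 774 and 680.3 CPM without and 1275, 805 and 800.5 CPM with PBDE. Cxcl13, a B cell attractant, had a log2 difference of 0.62 (SE 0.13). Others of the 7, such as Il1b, Il10 and Ccl6, are made mostly by myeloid cells. The macrophage marker list moved with them: all 7 of its members were higher in low PBDE fibroblasts in the fit, and their summed level was 3.57, 7.99 and 9.31 CPM without PBDE and 6.68, 7.07 and 25.2 CPM with it, the highest in VCD_Low_E2_P4. None of the 7 macrophage markers was at 0 in any of the 6 libraries, and their part in this list was not tested. Without the genes found mostly in the immune cells the list's median was 0.21.

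No tested receptor that PBDEs are known to act on reached an unadjusted p under 0.05 in fibroblasts. Ahr, the aryl hydrocarbon receptor, stood at 4.72, 3.61 and 1.99 CPM without and 4.79, 3.38 and 2.21 CPM with PBDE. Its target Cyp1b1 stood at 64.9, 60.1 and 47.3 CPM without and 79.9, 52.1 and 53.1 CPM with PBDE. The groups overlapped for both. Tiparp, another Ahr target, had a log2 difference of 0.49 (SE 0.18, unadjusted p = 0.0443, edgeR adjusted p = 0.852), set by the vehicle pair, in which it stood at 232 and 479.7 CPM. Esr1, the estrogen receptor, was at -0.11 (SE 0.07), Pgr at -0.08 (SE 0.64), Thra at 0.11 (SE 0.06), Thrb at 0.11 (SE 0.08) and Pparg at -0.12 (SE 0.13). Nfe2l2, the regulator of the oxidative stress response, was at 0.21 (SE 0.08, unadjusted p = 0.0439, edgeR adjusted p = 0.852). Nr1i2 and Nr1i3 (PXR and CAR), the receptors of the liver's drug response, were below the count filter in both compartments and were not tested. Over the lists, 2 of 21 xenobiotic, 3 of 32 oxidative stress, and 1 of 19 thyroid genes were higher at an unadjusted p under 0.05 (3.08% of all genes), and 0, 0 and 1 were lower (2.58%). Of 28 steroid receptors and estrogen receptor targets 2 were higher and 3 lower, Igf1 among the latter (-0.32, SE 0.09) without overlap between groups.

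**Figure D3:**
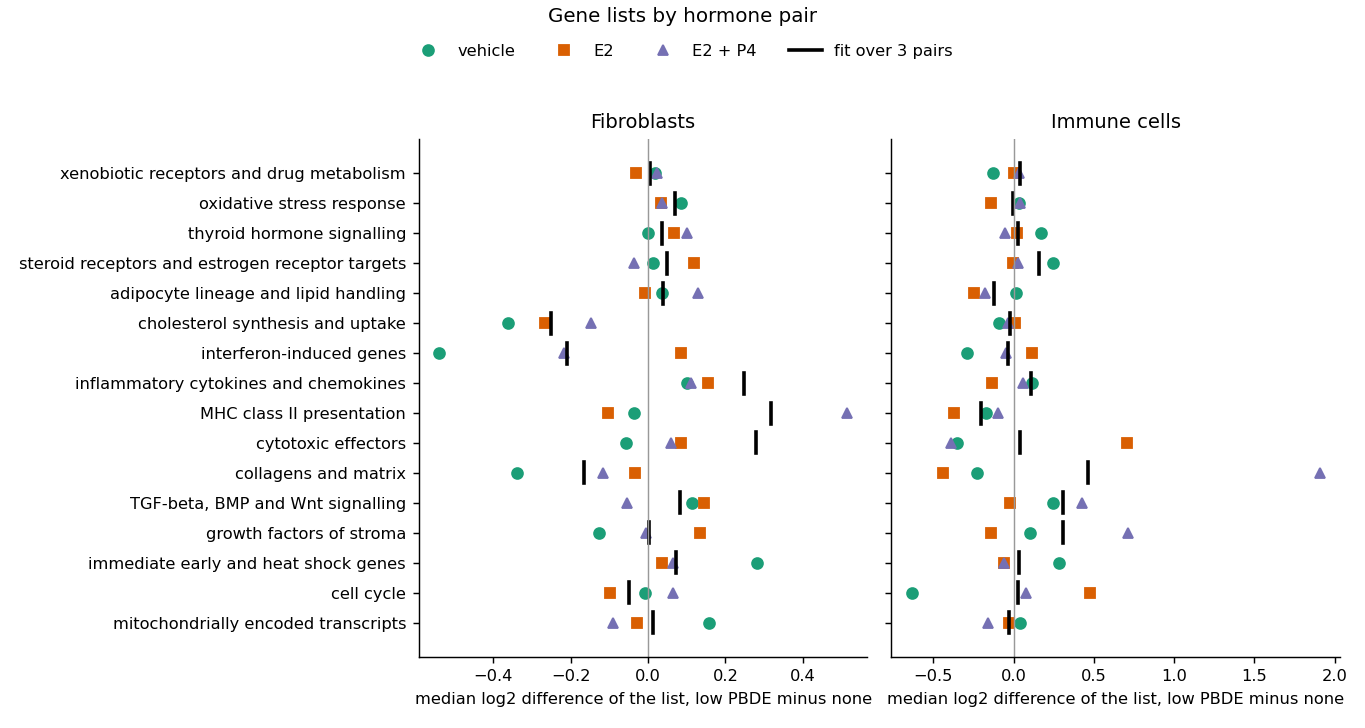
Median log2 difference, low PBDE minus none, of each gene list (rows) in fibroblasts (left) and immune cells (right), for the 3 hormone pairs (symbols, on log2(CPM + 1)) and for the edgeR fit (bars). In fibroblasts the cholesterol list lies below 0 in each pair (-0.36, -0.27 and -0.15), and in immune cells the collagen list stands at 1.91 in the E2 + P4 pair only.

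In immune cells the 5 genes with the lowest p among those lower in all pairs are known mostly from myeloid cells. Lst1, a leukocyte transcript of the MHC region (chr17:35185095-35188439), stood at 176, 253 and 188 CPM without PBDE and 88.7, 139 and 123 CPM with it (log2 difference -0.81, SE 0.12, edgeR adjusted p = 0.975, DESeq2 adjusted p = 0.0162). Adgre4, a monocyte and macrophage surface receptor, stood at 52.4, 59.1 and 36.2 CPM without and 25.2, 34.7 and 20.5 CPM with PBDE (-0.87, SE 0.12). Trem3, an activating receptor of myeloid cells, stood at 18.1, 22.1 and 12.02 CPM without and 7.36, 11.3 and 6.08 CPM with PBDE.

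In these 3 genes every low PBDE library was below every library without, as in 4.04% of all genes. Cadm1, an adhesion molecule of cross-presenting dendritic cells, showed the same order (23.2, 14.4 and 20.2 CPM without, 8.41, 7.68 and 9.39 CPM with PBDE). Wfdc21, a neutrophil transcript, had the largest difference of the 5 (-1.54, SE 0.20) with overlapping groups (6.45, 41.4 and 12.1 CPM without, 2.10, 11.8 and 5.39 CPM with PBDE).

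The marker lists of neutrophils, macrophages and dendritic cells had lower fitted levels beside them, and that of monocytes was mixed. All 6 neutrophil markers were lower in the fit, 4 at an unadjusted p under 0.05, and their summed level was 1043, 5966 and 1175 CPM without and 416, 2111 and 1097 CPM with PBDE. All 7 macrophage markers were lower too, 4 at this level, and all 6 dendritic cell markers, 1 at this level. The pair medians were -0.03, -0.49 and -0.52 for macrophages and -0.28, 0.02 and -0.65 for dendritic cells. The vehicle pair was thus near 0 for macrophages and the E2 pair for dendritic cells. Of the 6 monocyte markers 4 were lower in the fit, 2 at this level, and 2 higher, 1 at this level, with a median of -0.04 and 0.19 in the E2 + P4 pair. Marker lists of plasma, T and B cells went the other way in the same sums, and of the 6 markers of NK and innate lymphoid cells 2 were higher and 4 lower in the fit, 0 at this level. All 4 tested plasma cell markers were higher in the fit, 2 at this level (1.9% of all genes), and summed to 943, 435 and 912 CPM without and 2291, 798 and 9907 CPM with PBDE. All 4 tested T cell markers and all 3 tested B cell markers were higher, 0 at this level, with pair medians that differed in sign. Of 14 genes of MHC class II presentation 12 were lower in the fit, 4 at this level (2.34% of all genes), with a median of -0.20. In sums over all immune cells, fewer cells of a type and less RNA per cell cannot be told apart. S100a9, a calcium-binding protein of neutrophils, stood at 466, 2915 and 576 CPM without and 185, 1082 and 539.0 CPM with PBDE. Without the E2 + P4 pair edgeR called 4 genes of 11391: S100a8, S100a9 and Retnlg, all of neutrophils, lower, and Jchain, of plasma cells, higher.

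Among the 5 genes with the lowest p that were higher in all pairs, Gbp5, an interferon-induced GTPase, stood at 17.3, 11.3 and 14.4 CPM without and 35.05, 18.4 and 23.3 CPM with PBDE (0.81, SE 0.14), without overlap, as in 3.48% of all genes. Ly6k stood at 0.52 to 0.94 CPM without and 2.64 to 10.8 CPM with PBDE. Vcam1, an adhesion molecule with a mean of 71.7 CPM in fibroblasts, stood at 16.5, 10.6 and 13.8 CPM without and 42.4, 15.9 and 28.5 CPM with PBDE. Myoc and Errfi1, the other 2, had mean levels of 438 and 714 CPM in the fibroblasts of all 6 libraries. In immune cells without PBDE their means were 12.8 and 81.6 CPM, and over the immune cells of all 6 libraries that of Errfi1 was 99.9 CPM. Both were higher in each pair. The fibroblast markers had pair medians of -0.58, -0.43 and 2.03 in the immune cells, higher in the E2 + P4 pair only. Marker lists of fibroblast subsets had vehicle pair medians there of 0.98 (Dpp4 and Pi16), 0.74 (Gdf10 and F3), -0.16 (Fabp4 and Lpl) and -0.13 (Postn and Mfap4). Errfi1 was also higher in low PBDE fibroblasts in each pair (log2 difference 0.49, edgeR adjusted p = 0.852, DESeq2 adjusted p = 0.0056). The part of fibroblast RNA in both genes was not tested. The summed level of the fibroblast markers in immune cells was 588 to 993 CPM in 5 libraries and 4302 CPM in VCD_Low_E2_P4, with 1 of 6 markers, Pdgfra, at 0 by the gate. Without the genes found mostly in the fibroblasts, edgeR again called 0 of 10603 genes (527 at an unadjusted p under 0.05).

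Ahr was lower in immune cells, where it is expressed at a higher level than in the fibroblasts. It stood at 75.1, 67.6 and 63.9 CPM without PBDE and 53.4, 55.4 and 45.4 CPM with it (-0.42, SE 0.10, unadjusted p = 0.00624, edgeR adjusted p = 0.975), and the groups did not overlap. Its target Cyp1b1 stood at 1.81, 0.38 and 0.69 CPM without and 4.56, 1.89 and 5.04 CPM with PBDE, also without overlap. Such an order was seen in 3.48% of all genes, and the groups nearly touched (1.81 and 1.89 CPM). These levels rest on few UMIs, as 1 UMI was 0.19 CPM in the immune cells of VCD_E2. Cyp1b1 had a higher mean level in fibroblasts (59.6 CPM). Thra, Thrb, Esr1, Pparg and Nfe2l2 overlapped between groups, and Pgr was too low to test.

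**Figure D4:**
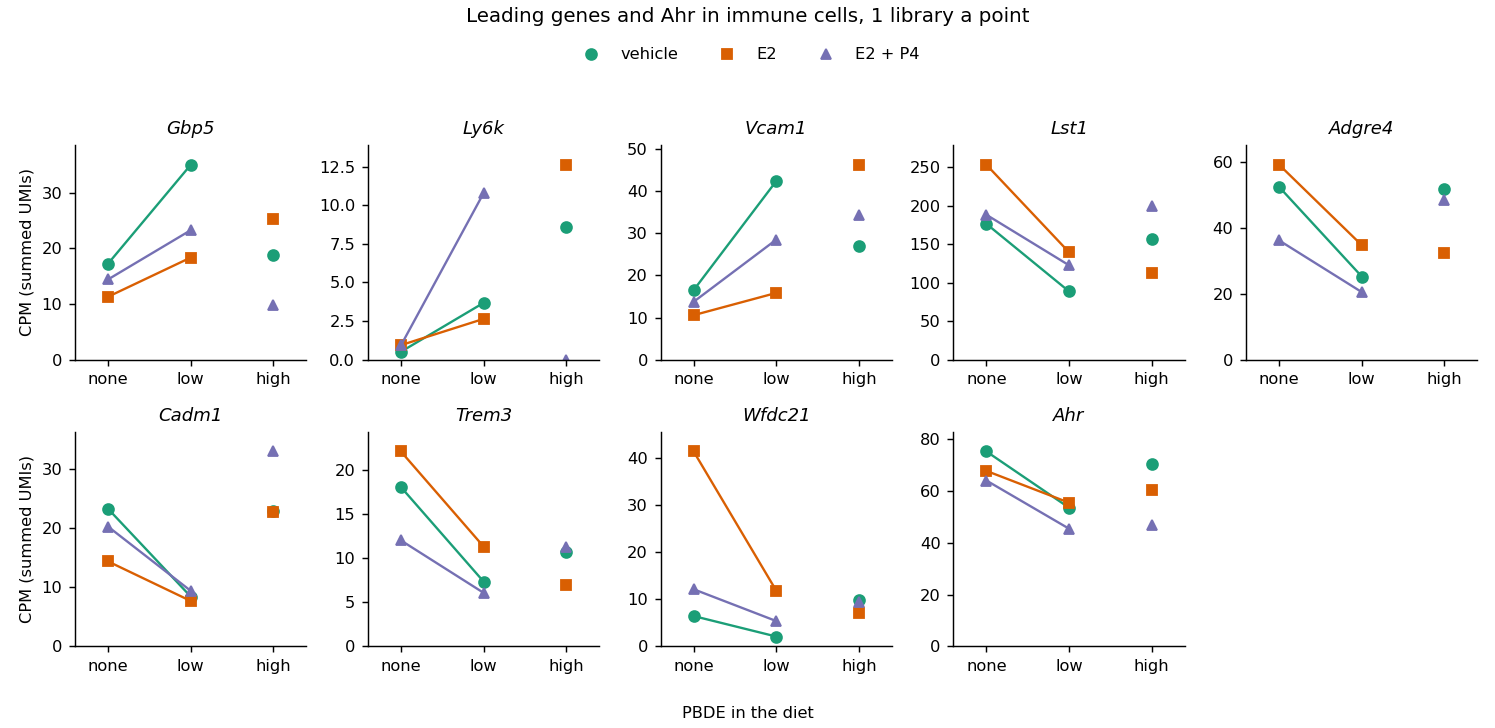
Levels of leading genes and of the receptor Ahr in immune cells (y axis, CPM of summed UMIs; x axis, PBDE in the diet; 1 point a library, symbols by hormone, lines joining the none and low libraries of a pair; high PBDE points have no line). Gbp5 and Ly6k lie higher in all low PBDE libraries, and Lst1, Adgre4, Cadm1, Trem3 and Ahr lower, as for Ahr from 63.9 to 75.1 CPM down to 45.4 to 55.4 CPM.

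In macrophages 12 genes passed the test. In cells with at least 5 UMIs of the complement genes C1qa, C1qb and C1qc and of no other gate (31, 72 and 90 cells without PBDE, 47, 69 and 72 with it), edgeR called these 12 among 7145 genes, 9 higher and 3 lower, with 361 at an unadjusted p under 0.05. The genes named here were chosen after their values were seen. Ly6c2, a surface antigen of recently arrived monocytes, stood at 96.7, 144 and 153 CPM without PBDE and 3.52, 41.1 and 31.2 CPM with it (-2.30, SE 0.28, edgeR adjusted p = 0.00107). Ptgs2, the cyclooxygenase that makes prostaglandins, stood at 16.1, 15.4 and 23.1 CPM without and 100.3, 42.7 and 88.9 CPM with PBDE (1.92, SE 0.25, edgeR adjusted p = 0.00199). Neither gene's groups overlapped. The level of Ly6c2 in VCD_Low_PBDE rested on 2 UMIs, against 20 to 212 in the other 5 libraries.

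Ccl2, which attracts monocytes, stood at 1190, 1915 and 2050 CPM without and 2354, 2754 and 3625 CPM with PBDE (0.77, SE 0.14, edgeR adjusted p = 0.0218). The groups did not overlap. Ccl4 and Ccl11 were higher, and Chil3, a monocyte product, was lower, each with overlapping groups. Jdp2, Rcan1, Errfi1, Ackr3 and Id3 were higher, and Hist1h2ap was lower. Ackr3 and Ccl11 rested on 2 to 17 UMIs in each library without PBDE, and Ptgs2 on 6, 17 and 32. In VCD_Vehicle Rcan1 rested on 10 and Jdp2 on 13 UMIs. Hist1h2ap rested on 5 and 3 UMIs in the vehicle pair, and Chil3 on 7 and 2 in the E2 + P4 pair. These levels are known only roughly. Of the 12, Ackr3, Ccl11, Errfi1 and Id3 had over 5 times their immune cell level in fibroblasts (568, 893, 714 and 1563 CPM). The fibroblast markers summed to 410 to 655 CPM in the macrophages of 5 libraries and to 1887 CPM in VCD_Low_E2_P4, with Pdgfra at 0 by the gate. With the genes found mostly in fibroblasts left out, edgeR called 12 of 6932 genes, among them the other 8. Of these, Ptgs2, Rcan1 and Ccl2 also had a higher level in fibroblasts (142, 122 and 771 CPM) than in immune cells (34.0, 25.1 and 560 CPM). They were under the limit of 5 times and so were not left out. Without the E2 + P4 pair it called 18 of 7182, among them 7 of the 12. Ackr3, Ccl2, Ccl4, Hist1h2ap and Rcan1 did not pass there (edgeR adjusted p from 0.0882 to 0.530), with log2 differences of 2.01, 0.75, 0.59, -0.99 and 1.12, against 2.16, 0.77, 0.78, -1.22 and 1.41 with all 3 pairs. Over all immune cells Ly6c2 had a log2 difference of -0.03 (SE 0.23). In the T cell gate edgeR called 0 of 8496 genes (214 at an unadjusted p under 0.05), in the dendritic cell gate 0 of 5302 (259) and in the B cell gate 0 of 698 (17). DESeq2 was not run within gates.

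The makeup of the immune cells and of the fibroblasts was described by fixed gates on markers, with no test, because 3 pairs cannot reach an exact p below 0.25. Dendritic cells were 9.13%, 6.19% and 7.43% of immune cells without PBDE and 3.02%, 5.81% and 4.96% with it. Their order was the same in each pair and the groups did not overlap, but the exact binomial 95% intervals overlapped in the E2 pair (4.27% to 8.63% and 4.27% to 7.70%) and in the E2 + P4 pair (5.74% to 9.42% and 3.48% to 6.84%). They were apart in the vehicle pair (6.55% to 12.3% and 1.77% to 4.80%). T cells were 37.0%, 24.95% and 39.5% without and 46.6%, 45.7% and 21.8% with PBDE. The E2 + P4 pair went against the other two. B cells were 6.67% in VCD_Low_E2_P4 and at most 1.20% in the others. In that library 41.0% of immune cells fell in no gate, at a median of 3832 UMIs. C1q macrophages were 7.45% to 13.9% without and 8.36% to 10.2% with PBDE.

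Fibroblasts in more than 1 gate were left out of each gate's share. They were 27.2%, 37.7% and 38.8% of fibroblasts without and 26.7%, 30.5% and 35.6% with PBDE. Among fibroblasts the gate of Dpp4 and Pi16 held 23.4%, 28.6% and 37.8% without and 38.2%, 36.4% and 34.5% with PBDE. Cells of this gate were thus more frequent with PBDE in the vehicle and E2 pairs and less frequent in the E2 + P4 pair. The gate of Gdf10 and F3 held 13.3%, 10.46% and 8.14% without and 9.87%, 9.30% and 5.19% with PBDE, lower in each pair with overlapping groups. The gate of Tnc and Postn held 2.17% in VCD_Low_PBDE and 4.08% to 7.48% in the other 5 libraries. It held the 7.48% in VCD_Low_E2_P4, where its cells had a median of 7655 UMIs, against 10985 to 23331 in the others. In that library 11.8% of fibroblasts fell in no gate, at a median of 2713.5 UMIs. This share lay within the range of the others (4.02% to 21.1%).

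**Figure D5:**
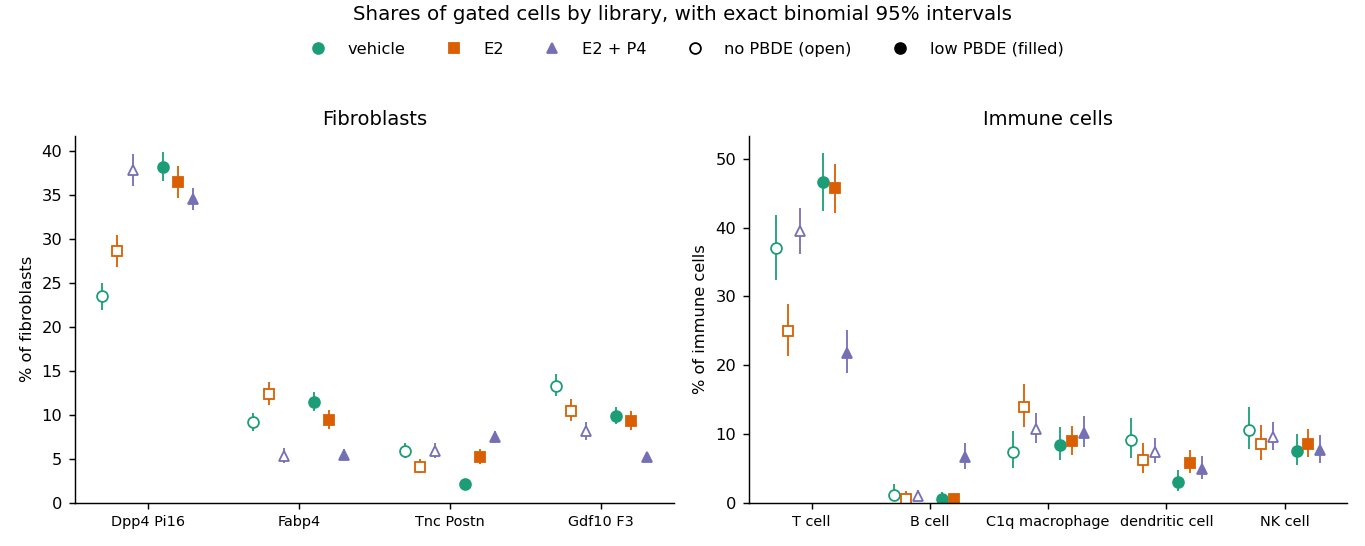
Shares of fibroblasts (left) and of immune cells (right) in each marker gate (x axis), in % (y axis), for each library without (open) and with low PBDE (filled), symbols by hormone and bars for exact binomial 95% intervals, which cover counting error only. T cells are 46.6% and 45.7% in the low PBDE libraries without hormone and with E2 and 21.8% in that with E2 + P4.

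The difference with low PBDE itself differed between mice with and without hormone for 8 of 14597 genes in fibroblasts (0.0548%, with 2 higher with hormone, 0.0137%, and 6 lower, 0.0411%; 1404 at an unadjusted p under 0.05, 9.62%) and for 0 of 11342 in immune cells (342 at this level, 3.02%). DESeq2 called 76 and 1. In fibroblasts edgeR called 0 with a filter of 10 CPM in 3 libraries, 0 with the fit over 9 libraries and 2 with VCD_Vehicle_NormEnv in place of VCD_Vehicle. On simulated data this test made more false calls than its threshold allows. Isg15, a ubiquitin-like interferon-induced protein, stood at 42.7 CPM in VCD_Vehicle and 17.1 CPM in VCD_Low_PBDE, while with E2 it stood at 88.2 and 169 CPM and with E2 + P4 at 64.7 and 105 CPM. The interaction was 2.13 (SE 0.15, edgeR adjusted p = 0.0269). Ankrd1, a stretch-induced transcript, stood at 0.59 and 19.6 CPM in the vehicle pair and between 0.89 and 1.71 CPM in the libraries with hormone. Adamts8, a matrix protease, stood at 33.9 and 1.13 CPM in the vehicle pair, at 3.07 and 9.08 CPM with E2 and at 3.90 and 23.7 CPM with E2 + P4. All 8 rest on the 1 vehicle pair. VCD_Low_E2 and VCD_Low_E2_P4, which alone carry this term, are also the libraries whose code in the file names differs. Hormone and that code cannot be told apart in this test.

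Against the high PBDE diet (PBDE-47 at 1, PBDE-100 at 0.056 and PBDE-153 at 0.126 mg/kg per day for 1 week) dose and duration cannot be told apart. edgeR called 0 of 14216 genes in fibroblasts between low and high PBDE (2028 at an unadjusted p under 0.05, 14.3%) and 2 of 10913 in immune cells (0.0183%, with 997 at this level, 9.14%), AY036118 and Gm42418, both higher with low PBDE (log2 differences 2.87 and 2.11, edgeR adjusted p = 0.0114 and 0.0497). DESeq2 called 202 and 23. These 2 transcripts overlap ribosomal RNA sequence, and they were also low in VCD_E2_ICI (26.9 and 628 CPM), which had no PBDE. Both diets were set against the same 3 libraries without PBDE, so their values are given side by side only. Hmgcs1 in fibroblasts had a mean of 166 CPM without PBDE, 102 CPM with low and 77.0 CPM with high PBDE, and the summed level of the cholesterol list was 915, 484 and 412 CPM in the 3 high PBDE libraries. The mean of the high PBDE libraries was below that of the low PBDE libraries in 19 of the 21 genes. Yet the summed level was higher with high than with low PBDE in the vehicle libraries, and lower only with E2 and with E2 + P4. For this count, as for that of the heat shock genes below, the share over all genes was not counted. The list stood at 1401 CPM in VCD_Vehicle_NormEnv, a further vehicle group kept with potential PBDE exposure from cage plastic, at 1284 CPM in VCD_E2_ICI and at 1555 CPM in the Intact library. In an alternative added once the values were known, VCD_Vehicle_NormEnv took the place of VCD_Vehicle, and the list's median was -0.31 and that of the immediate early and heat shock list 0.15. Of the 9 heat shock genes, 9 had a lower mean with high than with low PBDE in fibroblasts, with Hsph1 at 71.8, 64.0 and 60.0 CPM in the high PBDE libraries.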

How the data were processed

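Dissociated cells of the 4th mammary glands were profiled with the Chromium Single Cell 3′ v3 kit. Per the labels, the authors aligned reads to mm10 with Cell Ranger 3.1.0 and deposited raw UMI counts for 27998 genes per barcode, in 1 library per group. No doublet removal is described in the sources used here.

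Barcodes with at least 500 genes, 1000 UMIs and at most 5% mitochondrial UMIs were kept. UMIs were summed per library over the immune cells and over the fibroblasts. edgeR 4.0.16 (R 4.3.3, TMM, filterByExpr, quasi-likelihood test, Benjamini-Hochberg over all genes tested, threshold 0.05) was fitted with hormone as a block, which left 2 residual degrees of freedom, and 1 in the test of PBDE by hormone. Pair differences used log2(CPM + 1). The script was tested on simulated data, where false calls were a larger share of all calls than the threshold in every comparison, most so for PBDE by hormone. For that test in immune cells few of the smaller changes put in were recovered. Alternatives included DESeq2 1.42.0, other filters, removal of simulated-doublet neighbours and cells thinned to 1000 UMIs.

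The genes named were, in each compartment and direction, those past the test in all 3 pairs or, where fewer than 5 were, the 5 with the lowest p and 1 sign in all pairs, with the receptors and leading members of each list. Some genes so chosen are not reported here. The members and lists were chosen with earlier results of these data known. Medians of lists over both compartments and gates carry no test. Intervals cover counting error only. Coordinates are GRCm38 (mm10).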

Additional observations from a re-analysis of the deposited data

Results flagged for a closer look

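In fibroblasts 8 genes were singled out because the difference with low PBDE itself differed between mice with and without hormone. This difference was tested by the interaction term of edgeR's fit, with 1 residual degree of freedom, and it is given as the log2 difference with hormone minus that without. All 8 turn on the single pair without hormone, and no weighing of causes was made. The term is carried by VCD_Low_E2 and VCD_Low_E2_P4 alone, whose file-name code differs from that of the other libraries compared. Hormone and code therefore cannot be told apart here.

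Isg15 had an interaction of 2.13 and Adamts8 of 7.04, so both were lower with low PBDE in the vehicle pair and higher with hormone. The other 6 had the opposite sign: Ankrd1 (-5.82), Hbb-bt (-3.43), Cldn3 (-2.46), Bmp3 (-2.06), Krtdap (-2.01) and Dmkn (-1.83). Their edgeR adjusted p ranged from 0.0181 (Hbb-bt and Ankrd1) to 0.0409 (Dmkn).

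Hbb-bt, a haemoglobin chain of erythrocytes, stood at 1.79 CPM in VCD_Vehicle and 17.8 CPM in VCD_Low_PBDE, and at 37.5 to 63.4 CPM in the libraries with hormone. The erythrocyte markers moved with it, with summed levels in fibroblasts of 74.2, 616 and 434 CPM without PBDE and 204, 705 and 389 CPM with it (vehicle, E2, E2 + P4), and their part in the result was not tested. Krtdap and Dmkn, known from keratinocytes, stood at 25.1 and 25.2 CPM in VCD_Vehicle and at 72.5 and 83.4 CPM in VCD_Low_PBDE. Cldn3, a tight junction protein, and Bmp3 stood at 6.01 and 10.7 CPM in VCD_Vehicle and at 26.2 and 37.2 CPM in VCD_Low_PBDE. In VCD_Vehicle_NormEnv, the further vehicle library, Adamts8 stood at 7.27 CPM and Isg15 at 73.2 CPM, against 33.9 and 42.7 CPM in VCD_Vehicle. Hbb-bt stood there at 56.3 CPM, above VCD_Low_PBDE, and with that library in place of VCD_Vehicle its interaction turned to 1.54 (edgeR adjusted p = 0.0501). Krtdap stood there at 45.4, Dmkn at 38.6, Bmp3 at 16.4, Cldn3 at 8.92 and Ankrd1 at 0.49 CPM, all below VCD_Low_PBDE. In VCD_E2_ICI, which had no PBDE, Krtdap (106 CPM) and Dmkn (92.8 CPM) were above VCD_Low_PBDE. Bmp3 (36.1 CPM), Cldn3 (16.0 CPM) and Ankrd1 (0.98 CPM) were below it.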

How the results depend on the processing

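With low PBDE against none, edgeR called 0 genes in most alternatives. In immune cells DESeq2 called 1, leaving out a pair gave 0 to 4 (4 without the E2 + P4 pair), and the C1q macrophage gate gave 12 (chosen after seeing the data, 18 without the E2 + P4 pair and 12 without genes mostly of fibroblasts). In fibroblasts DESeq2 called 32, thinned cells 2, the Fabp4 gate 5 (chosen after seeing the data, 23 without the E2 + P4 pair, the 5 among them, and 8 without genes mostly of immune cells) and the gate of Tnc and Postn 1 (Hbb-bt). For PBDE by hormone, DESeq2 called 1 gene in immune cells. In fibroblasts (8 genes as reported) it called 76, no filter gave 185, 10 CPM in 3 libraries 0, 9 libraries 0, 10% mitochondrial UMIs 4, doublets removed 22, thinned cells 76 and VCD_Vehicle_NormEnv in place of VCD_Vehicle, chosen after seeing the data, 2. With that library Hbb-bt turned to 1.54 (edgeR adjusted p = 0.0501). For low against high PBDE in immune cells (2 as reported), DESeq2 called 23, no filter 14, 10 CPM in 3 libraries 1, 9 libraries 0, 10% mitochondrial UMIs 1, doublets removed 1, thinned cells 16, no hormone block 0, and leaving out a pair 0 to 29. In fibroblasts (0 as reported) DESeq2 called 202, no filter 11, 9 libraries 1 and thinned cells 16. The causes were not tested.

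Of 2238 comparisons of 140 gene results, 37 lost and 16 gained significance, 1 reversed and 2184 kept their side of the threshold. The sign changed in 258, of which 1 was of a called gene (Hbb-bt). Of 553 comparisons of list medians 76 changed sign. The labels give 1 library per group, so libraries were paired by hormone, the block of the fit, and not by replicate number.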
